A study of Mus musculus with 13 samples.

Results

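Hand1, Hand2, Isl1, Tbx20, Mef2c, Nkx2-5, Tnnt2 and Myl7, genes of the cardiac and lateral mesoderm, were followed in differentiating female mouse embryonic stem cells (mESCs). They were taken by symbol from the deposited gene table and were 8 of its 25965 rows. The question was when each gene came on over days 4 to 7 of differentiation, and whether depletion of Smarcc1, which encodes a scaffold protein of the BAF chromatin remodellers, altered its level. RNA-seq had been performed on 13 libraries. One library was of undifferentiated cells (Day0), and on each of days 4, 5, 6 and 7 there was 1 library with a nonsilencing control hairpin (Nons), 1 with the hairpin Smarcc1.6 and 1 with the hairpin Smarcc1.7.

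All libraries came from FVB/CAST F1 female mESC lines expanded in 2i, a medium with a pair of kinase inhibitors that holds cells undifferentiated. Differentiation was undirected, by weaning into DME HiHi medium. In the 12 libraries of days 4 to 7 the hairpins were delivered by virus on day 2 and cells were selected with puromycin on day 3, so Nons shares the transduction and selection. Day0 precedes both. The labels do not say whether libraries came from separate cultures, and each group holds 1 library per day. The 4 days therefore serve as the replicates of a group. In tests between days the 3 groups, both hairpins included, serve as the replicates of a day. Such a change is an average over Nons and knockdown. The p-values measure only the spread between these libraries.

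Cardiac precursors leave the primitive streak as mesoderm and settle in the lateral plate, where BMP, WNT and FGF signals turn on a network of transcription factors. Hand1 and Hand2 are basic helix-loop-helix factors, Isl1 a LIM homeodomain factor of the second heart field, Tbx20 a T-box factor, Mef2c a MADS-box factor and Nkx2-5 a homeodomain factor of the NK2 class. Tnnt2, the cardiac troponin T of the thin filament, and Myl7, the atrial regulatory myosin light chain, are sarcomere genes that follow later. Several of the 8 also act elsewhere: Hand1 in trophoblast giant cells and extraembryonic mesoderm, Isl1 and Tbx20 in motor neurons, and Mef2c in neurons and muscle.

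Depth ranged from 13993440 (Smarcc1.7, day 5) to 63548092 mapped reads (Smarcc1.6, day 4), so that 3 reads correspond to a log2 CPM between -2.22 and -4.40. Day0 and the day 6 libraries had 85.3% to 86.5% of reads in genes, and the other 9 libraries 91.6% to 92.6%, a difference in read assignment that cannot be told apart from day 6 or from Day0. Tests between pairs of days therefore compared days 4, 5 and 7 only, but the day 6 libraries still entered those fits and their spread. The test of a change per day was fitted over all 4 days. The mESC label was checked with 8 markers of undifferentiated cells, all of which had at least 10 reads in each library, with a summed level of 5327 CPM at Day0 and 1104 to 2712 CPM on days 4 to 7. Smarcc1 itself was lower with both hairpins on each day, by 1.06 ± 0.14 log2 units on average (SE, limma adjusted p = 0.00232). The gap was smaller on day 7 than on day 4. On day 4 its log2 CPM was 9.10 in Nons, 7.42 with Smarcc1.6 and 7.96 with Smarcc1.7. By day 7 these were 7.89, 7.28 and 7.51.

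The hairpins are shown because every comparison with Nons rests on them. The 22-base sites on the Smarcc1 transcript that pair with the guide strands, both in coding exons on the plus strand of chromosome 9 (GRCm38/mm10, GENCODE M21), lie at chr9:110177472-110177493 in exon 13 for Smarcc1.6 and at chr9:110173911-110173932 in exon 11 for Smarcc1.7.
Smarcc1.6 target: gcaggatgaagaagcagttaca
Smarcc1.7 target: tcagaaggaagaagatgagcaa

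In mm10, as the file places them, Hand1 lies on chromosome 11 from 57828705 to 57832818, Hand2 on chromosome 8 from 57320983 to 57324517, Isl1 on chromosome 13 from 116298281 to 116309688 and Tbx20 on chromosome 9 from 24720812 to 24774303. Mef2c lies on chromosome 13 from 83504034 to 83667079, Nkx2-5 on chromosome 17 from 26838664 to 26841565, Tnnt2 on chromosome 1 from 135836386 to 135852260 and Myl7 on chromosome 11 from 5896637 to 5898782. All 8 are protein coding genes. Hand2 overlaps the non-coding gene Hand2os1, and whether reads were counted by strand is not given in the sources used here, so its few reads cannot be assigned to one or the other.

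RefSeq promoter windows (GRCm38.p6) were found for 7 of the 8 genes, and the 250 bases upstream of the start are shown for 3 that differ in both CpG content and time course: Tbx20 and Isl1, which had an onset on day 4 in Nons, and Myl7, which never rose above Day0. Capitals mark CG dinucleotides. The windows are chr9:24774304-24774553 for Tbx20, chr13:116309689-116309938 for Isl1 and chr11:5898783-5899032 for Myl7, all 3 on the minus strand and written 5′ to 3′ along the gene.
Tbx20: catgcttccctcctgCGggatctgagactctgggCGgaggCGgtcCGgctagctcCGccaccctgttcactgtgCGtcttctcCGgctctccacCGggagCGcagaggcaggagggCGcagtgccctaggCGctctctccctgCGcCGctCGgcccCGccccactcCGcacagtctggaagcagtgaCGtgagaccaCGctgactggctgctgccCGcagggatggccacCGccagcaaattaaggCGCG
Isl1: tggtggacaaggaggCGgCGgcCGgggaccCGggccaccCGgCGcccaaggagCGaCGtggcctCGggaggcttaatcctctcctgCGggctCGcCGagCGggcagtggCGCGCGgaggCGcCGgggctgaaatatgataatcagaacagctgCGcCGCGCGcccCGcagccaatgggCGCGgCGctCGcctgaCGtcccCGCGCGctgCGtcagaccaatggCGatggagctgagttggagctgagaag
Myl7: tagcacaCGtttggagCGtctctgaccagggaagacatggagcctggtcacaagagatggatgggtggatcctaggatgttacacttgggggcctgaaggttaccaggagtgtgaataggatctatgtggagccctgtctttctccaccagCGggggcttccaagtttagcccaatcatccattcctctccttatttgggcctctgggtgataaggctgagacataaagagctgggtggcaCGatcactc
These stretches held 22 CG dinucleotides in Tbx20, 33 in Isl1 and 4 in Myl7, against a median of 10 in the same stretch of all 19650 windows of genes in the table. The GC content was 68.8% in Tbx20, 71.2% in Isl1 and 52.8% in Myl7, against a median of 55.6%. In the windows not shown, Hand2, with no onset in any group, held 15 CG dinucleotides. Nkx2-5 held 8, Tnnt2 held 5 and 0, and Mef2c held 1, 6 and 4. Nkx2-5 met the onset rule with the hairpins only, although its highest level was in Nons on day 6. A link between CpG content and onset was not tested.

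Short motifs of cardiac factors were searched on both strands of the whole windows, 250 bases before to 50 after the start, of which the 7 genes have 10. CTANNNNTA, a pattern looser than the MEF2 site in that N is any base, was found in Nkx2-5 58 bases upstream of the start. The pattern was also in 1 window of Tnnt2 and in 1 window of Mef2c, and is present in 18.7% of all 19650 windows. In each of these matches in the 3 genes the N letters included G or C. A GATA motif, AGATAA, was found in Tnnt2, Hand2 and Isl1, against 9.54% of all windows. An E-box, CANNTG, the motif of the Hand and Twist class, was found in 8 of the 10 windows and in 69% of all windows, with none in Tbx20. A TATA box, TATAAA, was found in 2 windows of Mef2c (12.2% of all windows). The NK2 motif TNAAGTG (10.8% of all windows) and the T-box core GGTGTGA (3.82%) were in none of the 10. Motifs were counted separately, and no matches of different motifs overlapped in the 10 windows. These matches describe the letters of the windows only.

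Compared per kb of annotated exon, Hand1 was the most abundant of the 8, with a mean level over the 12 libraries of days 4 to 7 of 8.24 ± 3.79 RPKM (SD, n = 12), and its lowest library, at 4.18 RPKM, lay above the highest library of any other. Myl7 followed with a level of 1.57 ± 0.586 RPKM, Tbx20 with 0.662 ± 0.405, Isl1 with 0.315 ± 0.23 and Nkx2-5 with 0.173 ± 0.166. Tnnt2 was at 0.0926 ± 0.0692, Hand2 at 0.026 ± 0.0222 and Mef2c at 0.0218 ± 0.0141 RPKM. Below Hand1, the ranges of each pair of neighbours in this order overlapped. The order depends on exon length, which is 590 bases for Myl7 and 11997 for Tbx20. In mean CPM, Tbx20 (7.94) lay above Myl7 (0.928). The annotated genes of Tbx20 and Nkx2-5 reach well beyond the spans given above, so their RPKM may be too low. In whole cultures, fewer cells of a type and less RNA per cell cannot be told apart.

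Onset was defined as the first day from which on, to day 7, a gene had at least 10 reads and stood at least 1 log2 unit above Day0, with Day0 taken at no fewer than 3 reads. By this rule Hand1 and Isl1 had an onset on day 4 in all 3 groups. Tbx20 had one on day 4 in Nons and Smarcc1.7 and on day 6 in Smarcc1.6. With Smarcc1.6 Tbx20 already stood 1.14 log2 units above Day0 on day 4, with 276 reads. It fell short only on day 5, at 0.70, and was at 1.17 and 1.21 on days 6 and 7. Nkx2-5 had none in Nons, one on day 6 with Smarcc1.7 and one on day 7 with Smarcc1.6, where day 6, with 10 reads, fell just short at 1.99 times the value of 3 reads at Day0. Hand2, Mef2c, Tnnt2 and Myl7 had no onset in any group. Mef2c in Nons met both conditions on days 4, 5 and 6, at 1.08, 1.82 and 2.61 log2 units. On day 7 it was back at the value of 3 reads at Day0. With either hairpin Mef2c met both conditions on day 6 only. With 30 reads required, the Isl1 onset with either hairpin moved to day 5 and Nkx2-5 had none. With 2 log2 units required, Tbx20 had its onset on day 5 in Nons, on day 7 in Smarcc1.7 and none in Smarcc1.6, and Isl1 had its onset on day 5 in Nons, on day 4 in Smarcc1.7 and none in Smarcc1.6. The plot of levels by day shows these courses with the value of 3 reads in each library.

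**Figure D1:**
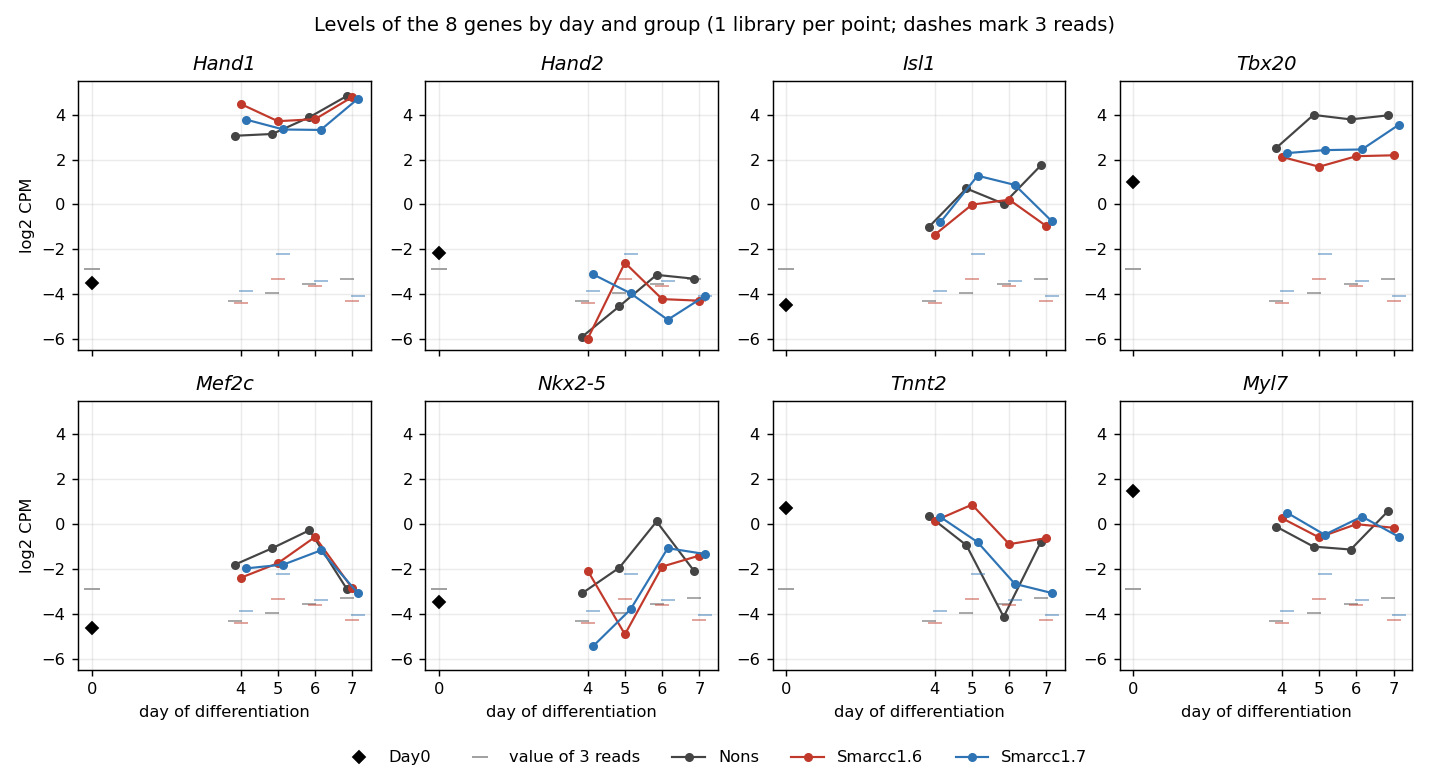
Log2 CPM (vertical axis) of the 8 genes by day of differentiation (horizontal axis), with 1 library per point. The black diamond is Day0, lines join the 4 days of Nons, Smarcc1.6 and Smarcc1.7, and short dashes mark the value of 3 reads in each library. Hand1 lies far above its Day0 level from day 4, Tbx20 is higher in Nons than with either hairpin on each day, and Hand2 stays near the level of 3 reads.

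Hand1, which patterns the lateral plate and the left ventricle, was the clearest gain from Day0. It had 2 reads at Day0 (log2 CPM -3.48). In Nons it had 498, 410, 523 and 845 reads on days 4 to 7 (log2 CPM 3.06, 3.14, 3.89 and 4.83). With Smarcc1.6 it had 1416, 398, 519 and 1624 reads (log2 CPM 4.48, 3.71, 3.80 and 4.79), and the Smarcc1.7 libraries had 597, 142, 318 and 1327 reads (log2 CPM 3.78, 3.34, 3.32 and 4.71). The gene was thus already present on day 4 in all groups and highest on day 7, where the 3 groups lay within 0.12 log2 units of each other. In Nons on day 4 the CPM was 93.1 times that of Day0 (exact 95% counting interval 25.6 to 771, wide because Day0 had 2 reads).

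Hand1 was higher on day 7 than on day 5 in each group. Of the 8 genes, only Hand1 and Tbx20 passed the filter on low values (mean log2 CPM not under 0 across days 4 to 7). Between day 5 and day 7 Hand1 rose by 1.38 ± 0.25 log2 units (SE, 95% interval 0.83 to 1.93, limma adjusted p = 0.000629), 1 of the 2 genes fitted, in a comparison that called 35.1% of all 13406 tested genes higher and 30.7% lower. Between day 4 and day 7 it rose by 1.00 ± 0.25 (adjusted p = 0.00381), and Tbx20 rose by 0.93 ± 0.32 (adjusted p = 0.0217). That comparison called 40.7% of genes higher and 31.7% lower, so a rise over these days was common. Both changes are averages over the 3 groups. The log2 CPM of Tbx20 went from 2.52 to 3.97 in Nons, from 2.12 to 2.19 with Smarcc1.6 and from 2.29 to 3.56 with Smarcc1.7. Centring each library on its median lowered both comparisons with day 7, by 0.22 log2 units against day 4 and 0.19 against day 5. The split of calls over all genes, 5459 higher and 4256 lower for day 7 against day 4, then became 4328 and 5495, and for day 7 against day 5 the 4711 higher and 4118 lower became 3692 and 5353. Hand1 was then still higher on day 7 than on day 4, by 0.78 (adjusted p = 0.0117), whereas Tbx20, at 0.71, no longer passed the threshold (adjusted p = 0.0572).

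Between day 4 and day 5, Hand1 changed by -0.37 ± 0.25 (adjusted p = 0.282) and Tbx20 by 0.39 ± 0.32 (adjusted p = 0.386), neither past the threshold. The comparison called 18.9% of genes higher and 12.1% lower. Without Nons of day 4 the Hand1 difference was -0.73 and was called (adjusted p = 0.0157). The direction of Hand1 over that day differed by group. Its log2 CPM went from 3.06 to 3.14 in Nons, from 4.48 to 3.71 with Smarcc1.6 and from 3.78 to 3.34 with Smarcc1.7.

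Hand1 is also a gene of trophoblast giant cells. Of 11 trophoblast markers, 7 or 8 had at least 10 reads in each library, with a summed level of 101 CPM at Day0, 70.1 to 3714 CPM in Nons, 112 to 3362 CPM with Smarcc1.6 and 83.7 to 2864 CPM with Smarcc1.7. The keratins of simple epithelia Krt8, Krt7 and Krt18 rose most of that list from day 4 to day 7, by 7.86 ± 0.19, 6.70 ± 0.33 and 6.36 ± 0.17 log2 units. In all, 4 of the 7 tested rose and 1 fell, against 40.7% and 31.7% of all tested genes. The giant cell prolactins Prl3d1 and Prl2c2 had 0 reads in each of the 13 libraries, and Ctsq never had more than 3. Of the extraembryonic mesoderm list, 6 of its 7 genes were in the table and of the 4 tested 3 rose and 1, Tbx4, fell by 3.38 ± 0.39 from day 4 to day 7, with a summed level of 218 CPM at Day0 and 156 to 1062 CPM on days 4 to 7. The part of such cells in the Hand1 level was not tested.

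Hand2, the paralogue of Hand1 in the right ventricle and limb, had at most 5 reads in any library. It had 5 reads at Day0, 1, 2, 4 and 3 reads in Nons on days 4 to 7, 1, 5, 2 and 3 with Smarcc1.6, and 5, 0, 0 and 3 with Smarcc1.7. A gene with 0 reads on day 5 of Smarcc1.7, the shallowest library, may have a level of up to 0.214 CPM, the value of 3 reads. The counts overlap in all groups, and none of the 12 libraries was above Day0 beyond counting error. Nons on day 4 (0.0748 of Day0, 0.00158 to 0.668), Smarcc1.6 on day 4 (0.0701, 0.00148 to 0.627) and Smarcc1.7 on day 6 (0 reads, upper bound 0.765) were below it. Throughout, intervals and floors cover counting error only.

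Isl1 was present at a low level from day 4. It had 1 read at Day0, and 30, 76, 36 and 99 reads in Nons on days 4 to 7 (log2 CPM -0.99, 0.71, 0.03 and 1.74). With Smarcc1.6 it had 25, 30, 43 and 30 reads (log2 CPM -1.35, -0.01, 0.21 and -0.97). With Smarcc1.7 it had 25, 34, 58 and 30 reads (log2 CPM -0.80, 1.28, 0.87 and -0.76). Nons was highest on day 7, whereas both hairpin groups were highest on days 5 and 6 and back near their day 4 level on day 7.

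On day 7 both hairpin groups lay below Nons. Isl1 with Smarcc1.6 was at 0.153 of the Nons level (exact 95% counting interval 0.0983 to 0.233) and with Smarcc1.7 at 0.177 of it (0.114 to 0.269). Both ratios share the Nons library of that day, and there is 1 library on each side. On day 6 the ratios were 1.13 (0.708 to 1.81) and 1.78 (1.16 to 2.78), on the other side of 1. On day 5 they were 0.605 (0.382 to 0.934) with Smarcc1.6 and 1.48 (0.96 to 2.25) with Smarcc1.7, on different sides of 1. Over all days the knockdown difference was -0.56 ± 0.43 (limma adjusted p = 0.59) with 4 of 8 same-day comparisons lower, so no difference was called, and without Nons of day 7 it was 0.11.

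Isl1 missed the filter with a mean log2 CPM of -0.0035. For it and the other 5 genes below the filter, fitted values come from the same models run over every row. There, Isl1 rose from day 4 to day 5 by 1.7 ± 0.55 (95% interval 0.53 to 2.88, adjusted p = 0.0446), where 10.5% of all rows were called higher. It was the only one of the 8 called in that comparison, and the call was lost on log2(CPM + 0.5) values (1.09, adjusted p = 0.187), in limma-voom on the recovered reads (adjusted p = 0.0538) and without a trend in eBayes (adjusted p = 0.0857). Leaving out 1 library gave 1.39 to 1.92, with the call lost in 6 of the 12 cases: Nons, Smarcc1.6 and Smarcc1.7 of day 4, Smarcc1.6 and Smarcc1.7 of day 5, and Smarcc1.7 of day 6.

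Isl1 also marks motor and sensory neurons. Of 9 genes of those cells, 2 to 7 had at least 10 reads in a library, with a summed level of 163 CPM at Day0, 30.1 to 77.6 CPM in Nons, 46.3 to 141 CPM with Smarcc1.6 and 41.3 to 99.8 CPM with Smarcc1.7. Olig2, a defining factor of motor neuron progenitors, never had more than 3 reads. Of the list, 2 genes were tested: Pou4f1, a factor of sensory neurons, fell by 1.23 ± 0.29 from day 4 to day 7 and Tubb3, a neuronal tubulin, rose by 0.92 ± 0.25. Their part in the Isl1 and Tbx20 levels was not tested.

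Tbx20, required for growth of the heart tube, was the 1 gene of the 8 called between knockdown and Nons. It had 44 reads at Day0 (log2 CPM 0.98), and 342, 738, 488 and 466 reads in Nons on days 4 to 7 (log2 CPM 2.52, 3.99, 3.79 and 3.97). With Smarcc1.6 it had 276, 97, 165 and 268 reads (log2 CPM 2.12, 1.68, 2.15 and 2.19). With Smarcc1.7 it had 213, 75, 174 and 599 reads (log2 CPM 2.29, 2.42, 2.45 and 3.56). Nons rose between day 4 and day 5 and then stayed level, Smarcc1.6 stayed near its day 4 level throughout, and Smarcc1.7 stayed level to day 6 and was highest on day 7. The ranges of Nons and Smarcc1.6 did not overlap, whereas those of Nons and Smarcc1.7 did.

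Knockdown lowered Tbx20 by 1.21 ± 0.28 log2 units (95% interval -1.83 to -0.60, limma adjusted p = 0.0195), where 4.77% of all tested genes were called lower and 6.88% higher. The gene was lower in 8 of 8 same-day comparisons, 7 of them beyond counting error, with each Nons library used for both hairpins. The fall was smallest on day 4, at -0.40 for Smarcc1.6 and -0.23 for Smarcc1.7, and largest on day 5, at -2.31 and -1.57, when the CPM was 0.201 (0.161 to 0.249) and 0.337 (0.262 to 0.428) of Nons. On day 7 the ratio was 0.291 (0.249 to 0.339) with Smarcc1.6 and 0.751 (0.664 to 0.849) with Smarcc1.7.

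Other marker lists moved with the same comparison, which called 6.88% of all tested genes higher and 4.77% lower, with a median of -0.01. Of 8 markers of undifferentiated mESCs, 6 were called higher with knockdown and 0 lower, with a median of 0.88, among them the pluripotency factors Prdm14 (1.62 ± 0.21, adjusted p = 0.00193), Klf4 (1.40 ± 0.29, adjusted p = 0.0128) and Zfp42 (1.11 ± 0.15, adjusted p = 0.0025). Their summed level on days 4 to 7 was 1104 to 1748 CPM in Nons, 1367 to 2712 CPM with Smarcc1.6 and 1110 to 2238 CPM with Smarcc1.7. The summed level of 8 primitive streak genes was 51.6 to 493 CPM in Nons, 31.4 to 108 CPM with Smarcc1.6 and 30.8 to 58.6 CPM with Smarcc1.7. The part of such cells in the Tbx20 difference was not tested.

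By hairpin, Tbx20 with Smarcc1.6 was lower by 1.54 ± 0.28 (adjusted p = 0.00963), 34.5% of the Nons level, where 3.71% of genes were called lower, and was not called without the day 6 libraries (-1.50, adjusted p = 0.0722). With Smarcc1.7 the difference was -0.89 ± 0.28 (adjusted p = 0.108), 54% of the Nons level, and did not pass the threshold, in a comparison that called 0.768% of genes lower. The difference between the hairpins was -0.65 (95% interval -1.26 to -0.03, adjusted p = 0.989), in a comparison that called 0% of genes (0 in limma, with 530 at an unadjusted p under 0.05). The knockdown call did not hold without the Nons library of day 5 (-0.97, adjusted p = 0.101), without that of day 6 (-1.12, adjusted p = 0.0843) or without all day 6 libraries (-1.12, adjusted p = 0.121). The rise from day 4 to day 7 was not called without the Nons library of day 4 (0.53, adjusted p = 0.117) or the Smarcc1.7 library of day 7 (0.67, adjusted p = 0.124). The plot of same-day ratios shows the course of each gene relative to Nons.

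**Figure D2:**
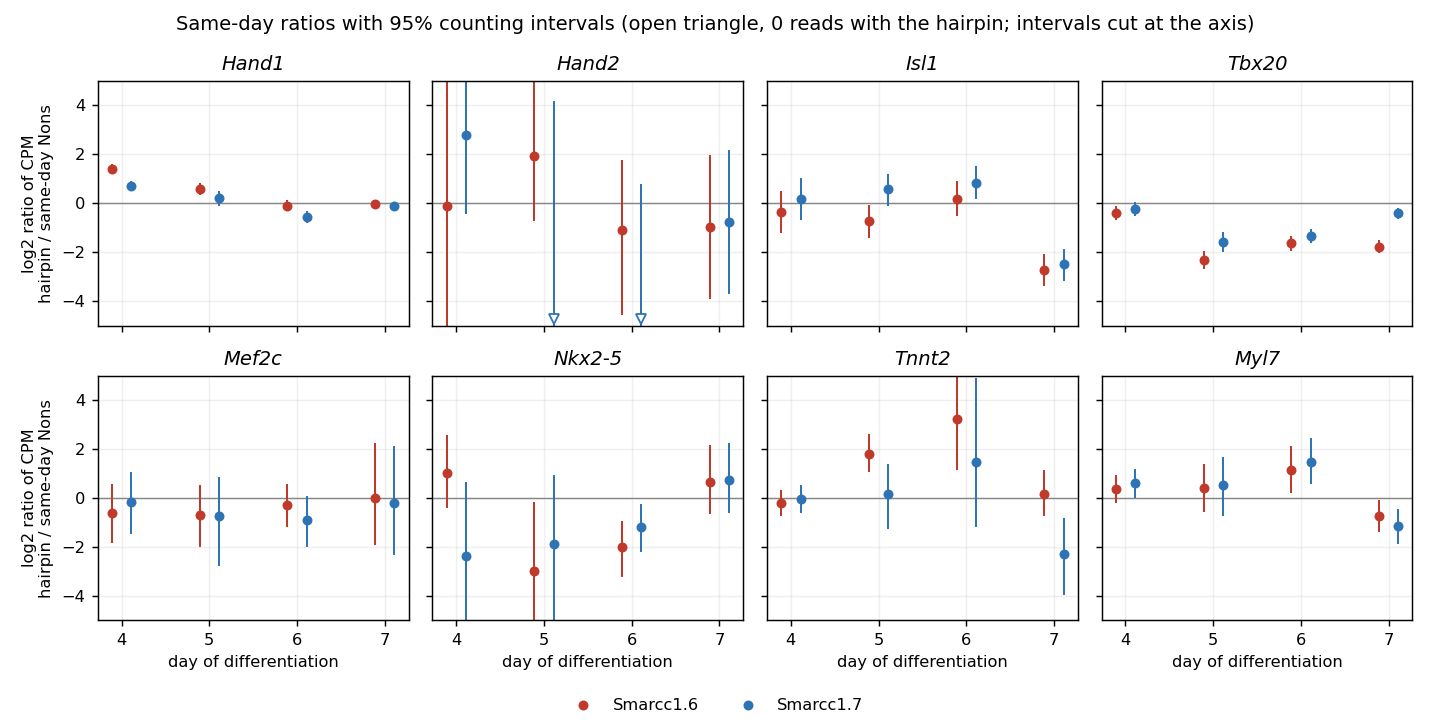
Log2 ratio of CPM of each hairpin library to its Nons counterpart (vertical axis) by day (horizontal axis), with exact 95% counting intervals as bars. Tbx20 lies below 0 in all 8 comparisons, Isl1 falls far below 0 on day 7 with both hairpins, Hand1 goes from above 0 on day 4 to near 0 on day 7, and the Hand2 intervals all span 0.

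For Hand1, knockdown and Nons differed by 0.26 ± 0.21 (95% interval -0.19 to 0.71, adjusted p = 0.451), with 4 of 8 same-day comparisons higher. The difference went from 1.42 (Smarcc1.6) and 0.72 (Smarcc1.7) on day 4 to -0.04 and -0.12 on day 7. The difference in slope between knockdown and Nons was -0.42 ± 0.14 log2 units per day (95% interval -0.72 to -0.11), which had an unadjusted p of 0.0118 in limma but did not pass adjustment (adjusted p = 0.126), and was -0.36 without day 6 (adjusted p = 0.204). For Tbx20 it was -0.19 ± 0.25 (adjusted p = 0.729). This interaction called 3.75% of all tested genes and 0 of the 2 members fitted, with Hand1 alone under an unadjusted p of 0.05, and 0 of the 8 in the fit over every row.

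Mef2c, which activates muscle genes together with other factors, was detected with few reads. It had 0 reads at Day0, which allows up to 0.135 CPM. In Nons it had 17, 22, 29 and 4 reads, with Smarcc1.6 12, 9, 25 and 8, and with Smarcc1.7 11, 4, 14 and 6. All 3 groups were highest on day 6 and lowest on day 7. The day 6 level exceeded the mean of days 5 and 7 by 1.7, 1.74 and 1.26 log2 units, and day 6 is the day with the different read assignment, whose part in this peak cannot be told apart from the day. From day 5 to day 7 Mef2c fell by 1.40 ± 0.53 in the fit over every row (adjusted p = 0.0467), where 19.3% of rows were called lower. That call was lost in each of the 12 fits that left out 1 library (-1.51 to -1.25), and without the day 6 libraries (adjusted p = 0.0886). Mef2c in knockdown was lower in 7 of 8 same-day comparisons, 0 of them beyond counting error, with a fitted difference of -0.44 ± 0.38 (adjusted p = 0.674).

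Nkx2-5, a core factor of cardiac progenitors, had few reads in each library, from 1 to 38 on days 4 to 7. It had 2 reads at Day0. In Nons it had 7, 12, 38 and 7 reads, with Smarcc1.6 15, 1, 10 and 22, and with Smarcc1.7 1, 1, 15 and 20. Nons was highest on day 6 (log2 CPM 0.11), Smarcc1.6 on day 7 (-1.41) and Smarcc1.7 on day 6 (-1.08, against -1.34 on day 7). As for Mef2c, day 6 exceeded the mean of days 5 and 7 in all groups, by 2.13, 1.27 and 1.49 log2 units. On day 6 the CPM was 0.249 (0.111 to 0.509) of Nons with Smarcc1.6 and 0.437 (0.223 to 0.813) with Smarcc1.7, and on day 7 it was 1.59 (0.656 to 4.4) and 1.67 (0.678 to 4.67).

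Over all days Nkx2-5 differed by -1.0 ± 0.63 in knockdown (95% interval -2.33 to 0.34, adjusted p = 0.467). From day 4 to day 7 it differed by 1.92 ± 0.86 (adjusted p = 0.0823), and from day 5 to day 7 by 1.95 ± 0.86 (adjusted p = 0.0897). Without Nons of day 7 both were called, at 2.68 (adjusted p = 0.0279) and 2.7 (adjusted p = 0.0265). Without Smarcc1.6 of day 4 both were called too, at 3.0 (adjusted p = 0.00796) and 1.95 (adjusted p = 0.0465), and without Nons of day 5 the second was (2.58, adjusted p = 0.0343).

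Both sarcomere genes were already present at Day0, and in none of the 12 later libraries did either exceed it beyond counting error. Tnnt2 had 36 reads at Day0 (log2 CPM 0.69). In Nons it had 76, 24, 2 and 17 reads (log2 CPM 0.35, -0.95, -4.14 and -0.80), with Smarcc1.6 70, 55, 20 and 38 (0.14, 0.86, -0.90 and -0.63), and with Smarcc1.7 54, 8, 5 and 6 (0.31, -0.81, -2.67 and -3.08). Levels lay within 0.21 log2 units of each other on day 4 and spread from day 5 on, with Smarcc1.6 highest on each later day. From day 4 to day 7 Tnnt2 fell by 1.77 ± 0.69 in the fit over every row (adjusted p = 0.046), where 21.9% of rows were called lower. This call was lost in 8 of the 12 fits that left out 1 library, with a smallest change of -1.08 (adjusted p = 0.291) without Smarcc1.7 of day 7, and in limma-voom (-1.49, adjusted p = 0.0585).

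With Smarcc1.6, Tnnt2 was at 3.51 times the Nons CPM on day 5 (2.14 to 5.93) and at 9.45 times on day 6 (2.3 to 83.4, where Nons had 2 reads). With Smarcc1.7 it was at 0.206 of Nons on day 7 (0.0666 to 0.548). Between the hairpins Tnnt2 differed by 1.43 ± 0.60 (adjusted p = 0.602) and between knockdown and Nons by 0.54 ± 0.59 (adjusted p = 0.802), so no fitted difference was called.

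Myl7 had 62 reads at Day0, its highest level (log2 CPM 1.48). In Nons it had 55, 23, 16 and 44 reads (log2 CPM -0.12, -1.01, -1.14 and 0.57), with Smarcc1.6 76, 20, 37 and 52 (0.26, -0.60, -0.01 and -0.17), and with Smarcc1.7 61, 10, 40 and 34 (0.49, -0.48, 0.33 and -0.58). It was lowest in Nons on day 6 at 0.163 of Day0 (0.088 to 0.287), and in each of the 12 libraries the counting interval of the ratio to Day0 lay below 1. Knockdown was higher than Nons in 6 of 8 same-day comparisons and lower in the 2 of day 7, at 0.598 (0.392 to 0.914) and 0.451 (0.28 to 0.723). The fitted difference was 0.33 ± 0.34 (adjusted p = 0.772), and no comparison between days was called.

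Among all 8 genes, the fit over every row called Tbx20 alone for knockdown, where 6.31% of all rows were called. The median knockdown difference of the 8 was -0.20, against 0.11 over all rows. For day 7 against day 4 the median of the 8 was 0.97, against 0.30 over all rows, with Hand1 and Tbx20 called higher, as were 25.1% of all rows, and Tnnt2 called lower, as were 21.9%. The plot of fitted differences gives the 8 genes in the 4 main comparisons.

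**Figure D3:**
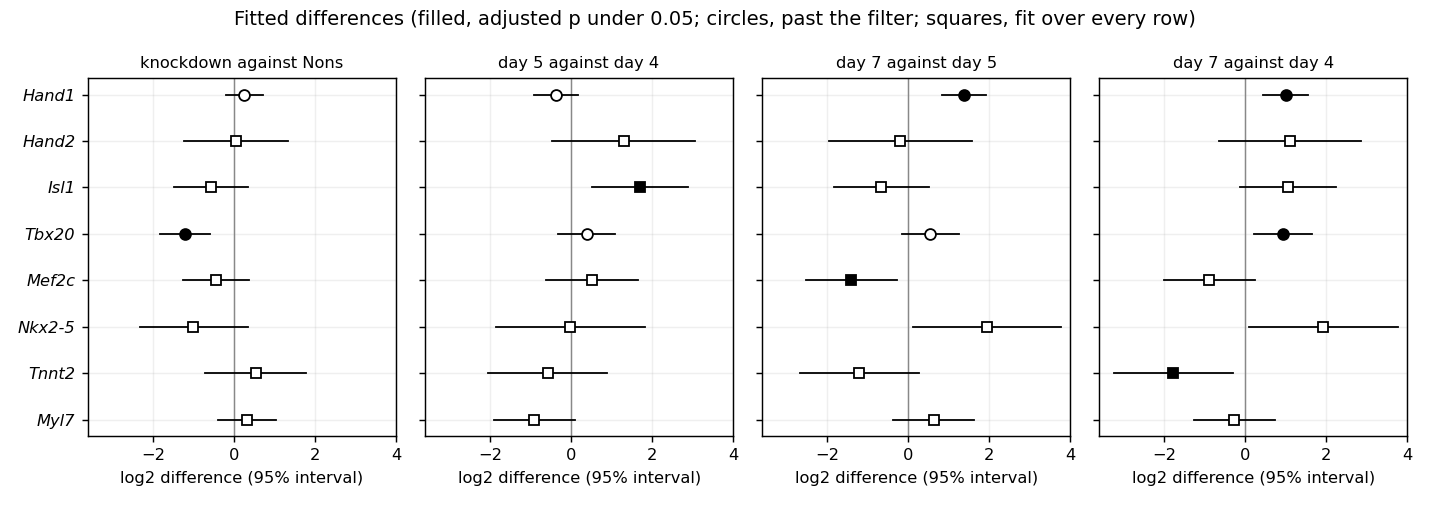
Fitted log2 differences (horizontal axis) of the 8 genes with 95% intervals as bars, for knockdown against Nons and for 3 pairs of days. Circles are genes past the filter on low values, squares are genes fitted over every row, and filled symbols have an adjusted p under 0.05. Tbx20 is the only filled symbol for knockdown, and the intervals of Hand2, Nkx2-5 and Tnnt2 are the widest.

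The levels of other genes of the same network were examined next. Of 34 further regulators of lateral and cardiac mesoderm, 16 were tested, and 0 rose and 3 fell with knockdown, where 6.88% of all tested genes were called higher and 4.77% lower. Among them were Twist1, a mesenchymal helix-loop-helix factor (fell by 0.80 ± 0.21, adjusted p = 0.0339), and Foxh1, a partner of SMAD proteins in Nodal signalling (fell by 0.34 ± 0.09, adjusted p = 0.0368). The median over the 16 was -0.28, against -0.01 over all tested genes. From day 4 to day 7, 8 of the 16 rose and 5 fell, against 40.7% and 31.7% of all tested genes, and after centring 7 rose and 5 fell. Gata4, a zinc finger factor that acts with Nkx2-5 and Tbx20, rose by 2.47 ± 0.35 and Mesp2, a factor of nascent mesoderm, fell by 2.27 ± 0.47. Osr1, a lateral plate gene, never had more than 3 reads.

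The 3 MEF2 paralogues of Mef2c all passed the filter and rose over time: Mef2b rose by 2.37 ± 0.41, Mef2a by 1.23 ± 0.16 and Mef2d by 0.62 ± 0.17 from day 4 to day 7, also after centring. None of the 3 was called between knockdown and Nons. The difference between Mef2c and its paralogues was not tested.

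Of 17 signals that act on cardiac mesoderm, 9 were tested, and 0 rose and 3 fell with knockdown. Fst, an activin antagonist, fell by 2.09 ± 0.39, Fgf8, a ligand of the streak and second heart field, fell by 1.88 ± 0.23, and Rspo3, which potentiates WNT signalling, fell by 1.74 ± 0.32 (adjusted p = 0.00743, 0.00186 and 0.00749). The median over the 9 was -0.27, against -0.01 over all tested genes, of which 6.88% were called higher and 4.77% lower. The same 3 genes rose from day 4 to day 7, Rspo3 by 3.75 ± 0.45, Fgf8 by 3.65 ± 0.33 and Fst by 2.95 ± 0.53. Over those days 6 of the 9 rose and 0 fell, against 40.7% and 31.7% of all tested genes. Of 8 primitive streak genes 5 were tested, of which T, the mesoderm factor Brachyury, fell by 2.50 ± 0.67 with knockdown and Eomes by 0.92 ± 0.26, beside Fgf8.

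Of 28 sarcomere and calcium handling genes beside Tnnt2 and Myl7, 15 were tested. With knockdown 5 of the 15 rose and 0 fell, against 6.88% and 4.77% of all tested genes. Their median was 0.45, against -0.01 over all tested genes. The largest rises were in Tnni1, the slow skeletal troponin I also used by the embryonic heart (1.95 ± 0.48, adjusted p = 0.0256), Myh7, a slow myosin heavy chain (1.1 ± 0.28, adjusted p = 0.0295), and Nppb, a natriuretic peptide (1.09 ± 0.30, adjusted p = 0.0361). By hairpin, Tnni1 and Nppb were called with Smarcc1.6, Ldb3, a protein of the Z-disc, was called with Smarcc1.7, and Myh7 was called with neither. The summed level of the list was 794 CPM at Day0, 1086 to 3049 CPM in Nons, 1012 to 2649 CPM with Smarcc1.6 and 1005 to 3008 CPM with Smarcc1.7, lower than Nons with both hairpins on each day. From day 4 to day 7, 6 of the 15 rose and 8 fell, against 40.7% and 31.7% of all tested genes. Tpm1, a tropomyosin that non-muscle cells also use, rose by 4.54 ± 0.25, whereas Tnni1 fell by 4.82 ± 0.66 and the giant sarcomere protein Ttn fell by 4.13 ± 0.40. Pln, the phospholamban of heart muscle, never had more than 3 reads.

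Genes of other contractile cells moved over the same days. Of 8 smooth muscle and actin cytoskeleton genes 7 were tested and all 7 rose from day 4 to day 7, with a median of 4.70, led by Acta2 (11.06 ± 0.49), Tagln (9.54 ± 0.49) and Cnn1 (5.52 ± 0.37), and 0 of the 7 were called with knockdown. Their summed level was 10.5 CPM at Day0, 32.1 to 1193 CPM in Nons, 37.3 to 1508 CPM with Smarcc1.6 and 33.6 to 1475 CPM with Smarcc1.7. Of 10 skeletal muscle genes 4 were tested, and the myosin Myh3 rose by 0.82 ± 0.18 with knockdown. From day 4 to day 7 the skeletal actin Acta1 rose by 9.77 ± 0.64 and Myh3 fell by 4.0 ± 0.23, and the summed level of the list was 5.7 CPM at Day0 and 16.3 to 58.9 CPM later. Myf6, a skeletal muscle determination factor, never had more than 3 reads.

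In the remaining marker lists few genes passed the filter. Of all tested genes, knockdown called 6.88% higher and 4.77% lower. With knockdown, in neural crest 0 of 3 rose and 1 fell (Tfap2a, by 0.97), in endoderm 1 rose and 1 fell of 3 (Cubn 1.56 and Sox17 -0.88), in endothelium and blood 1 rose and 1 fell of 5 (Pecam1 1.18 and Gata2 -0.57), and in fibroblast and stroma 2 rose and 1 fell of 6 (Col1a2 2.82, Thy1 0.83 and Fn1 -0.80, the last not called after centring). From day 4 to day 7 the counts were 1 higher and 2 lower in neural crest and in endoderm, 1 and 3 in endothelium and blood, 3 and 2 in fibroblast and stroma, and 0 and 7 in undifferentiated cells. Of all tested genes, 40.7% were called higher and 31.7% lower in that comparison. With knockdown, of the 7 tested trophoblast genes 1 fell (Krt8, by 0.50), of 4 extraembryonic mesoderm genes 0 were called, and of 2 neuronal genes 1 rose (Tubb3, by 0.72). Summed levels were 23.8 CPM at Day0 and 25.4 to 59.1 CPM later for neural crest, 3.86 and 8.53 to 18.3 CPM for endoderm, 247 and 37.6 to 98.6 CPM for endothelium and blood, and 721 and 103 to 899 CPM for fibroblast and stroma. The liver gene Ttr and the embryonic globin Hbb-y never had more than 3 reads. The plot of related lists gives each tested gene of 6 lists.

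**Figure D4:**
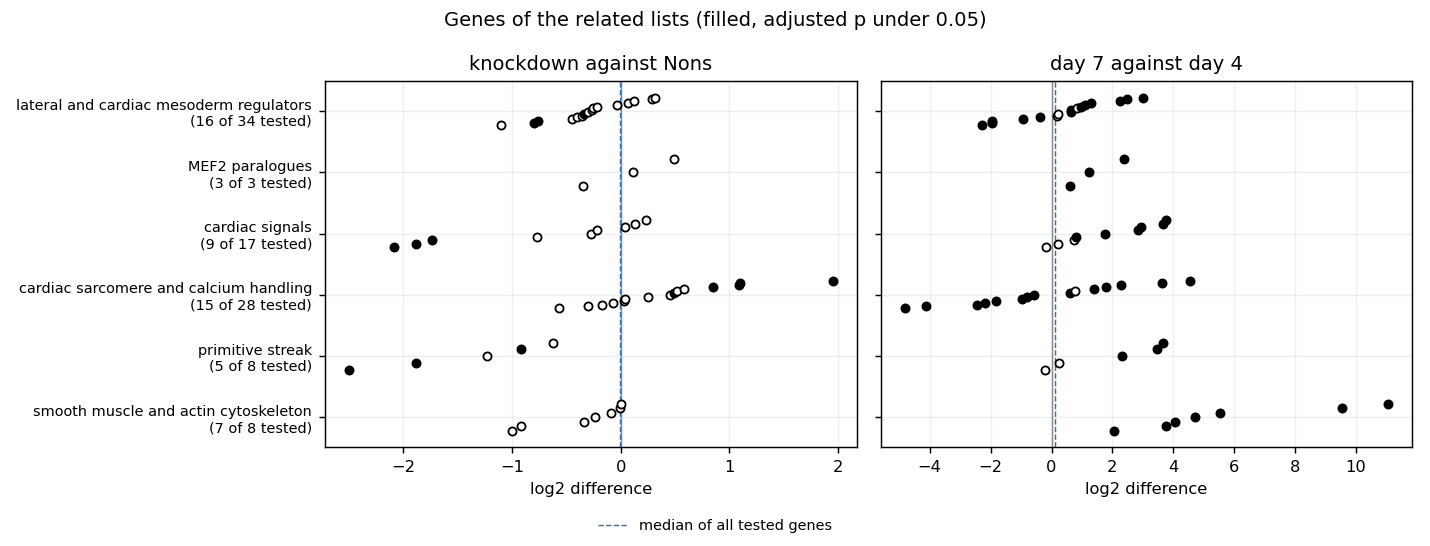
Fitted log2 difference (horizontal axis) of each tested gene of 6 lists, for knockdown against Nons (left) and day 7 against day 4 (right), with filled points at an adjusted p under 0.05 and a dashed line at the median of all tested genes. With knockdown 3 signals lie far to the left and 5 sarcomere genes are filled to the right, and the 7 smooth muscle genes are all filled to the right over time.

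Finally, the genes whose profile over the 12 libraries was most like that of a member were listed for the 2 members past the filter, by the root mean square difference of log2 CPM after centring each gene. For Hand1 these were Cast (0.22), Reep4 (0.22) and Ppp2r2c (0.23), against a median of 0.73 over all tested genes. For Tbx20 they were A830018L16Rik (0.38), Ttc23 (0.41) and Eya1 (0.43), against a median of 0.87. Without day 6, 0 of the 3 nearest genes were kept for Hand1 and 1 of the 3, A830018L16Rik, for Tbx20. These are descriptions over 12 libraries that share days, and no other of the 8 genes was among them.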

How the data were processed

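RNA was measured in 13 libraries, and the deposited table holds log2 CPM per gene, which the authors made by trimming reads, aligning them to mm10 masked at strain differences (TopHat2 2.0.12 per the submitters' processing notes, or HISAT2, with no statement of which library had which) and counting reads per gene in SeqMonk with both alleles together. The annotation release and strand setting are not given in the sources used here. Each log2 CPM was a whole number of reads over the mapped depth (100% of 105089 low values, within 0.01 reads), with 0 reads written as the value of 0.9 reads, so reads were recovered. Columns of no sample numbered 0.

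Differences were fitted with limma 3.58.1 (R 4.3.3; eBayes with trend) on log2 CPM of 12 libraries, with day as a factor, on the 13406 genes whose log2 CPM averaged 0 or more, and every adjusted p is limma's with Benjamini-Hochberg adjustment at 0.05. Genes of the 8 below that filter were fitted over all 25965 rows, a choice made after seeing the data. In simulated data that fit returned a larger share of false calls than the threshold. Tests between days had group as a further factor and were fitted over all 12 libraries, day 6 included. Counting intervals of 95% are exact (scipy 1.17.1), and RPKM is per kb of all GENCODE M21 exons of a gene. Other tools were Python 3.11.15, matplotlib 3.10.9, pandas 2.3.3 and numpy 2.4.6.

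The 8 genes, the related lists and the tests were chosen with earlier results of these data known. Of each list and comparison at most the 3 called genes with the largest change were named, with defining markers at or near 0 reads, and for genes past the filter the 3 nearest profiles. One gene that the rule names is not reported here. Alternatives were other filters, no trend, log2(CPM + 0.5), median centring, limma-voom on reads, single hairpins, no block for day, no day 6 and each library left out.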

Additional observations from a re-analysis of the deposited data

Results flagged for a closer look

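In 3 of 24 sets of 4 libraries (8 genes in 3 groups) 1 library stood apart from the other 3 by Dixon's test, where chance gives about 1 in 20 sets, or 1.2 here. All 3 were of Tbx20. In Nons it had a log2 CPM of 2.52 on day 4 against 3.79 to 3.99 on the other days. With Smarcc1.6 it had 1.68 on day 5 against 2.12 to 2.19, and with Smarcc1.7 it had 3.56 on day 7 against 2.29 to 2.45. The 4 libraries of a set are of different days.

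In limma's interaction term, the change per day differed between knockdown and Nons for 3 of 16 tested related regulators and 2 of 9 signals. Of all tested genes, 3.75% were called. Of the 8 genes, 0 of the 2 past the filter were called, and 0 of the 8 in the fit over every row. These slopes were fitted over all 4 days, day 6 included. Kdr, the VEGF receptor of early mesoderm and endothelium, differed by -1.46 ± 0.27 log2 units per day (SE, adjusted p = 0.0163). Its log2 CPM on days 4 to 7 was 2.49, 1.77, -0.14 and 3.80 in Nons, 3.81, 1.17, -0.97 and 0.57 with Smarcc1.6, and 3.26, 0.65, -0.74 and -0.71 with Smarcc1.7, so that knockdown was higher on day 4 and lower on day 7. Bmp4, a ligand that induces lateral mesoderm, differed by -0.67 ± 0.14 (adjusted p = 0.0281), with log2 CPM 3.74, 2.73, 2.82 and 5.35 in Nons, 4.91, 3.34, 3.07 and 3.83 with Smarcc1.6, and 4.76, 3.35, 3.01 and 4.85 with Smarcc1.7. Cited2, a transcriptional coregulator, differed by -0.50 ± 0.12 (adjusted p = 0.0404). Nodal, the ligand that induces mesendoderm, differed by -0.39 ± 0.09 (adjusted p = 0.0322). Foxh1, which acts downstream of Nodal, differed by 0.22 ± 0.05 (adjusted p = 0.0425).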

How the results depend on the processing

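Of 1184 values of the 8 genes under the alternatives, 1128 kept their side of the threshold, 43 lost a call and 13 gained one. Among the 1128 were 63 uncalled values with the other sign, and 0 called values reversed. Counts over all genes moved by more than 1.5 times in these cases, and the cause was not tested. For knockdown, 1561 genes became 287 without day 6, 57 with Smarcc1.6 only, 0 with Smarcc1.7 only (2363 unadjusted), and 611 to 2003 with 1 library left out. For Smarcc1.6, 1247 became 202 without day 6 and 352 to 1694 with 1 library left out. For Smarcc1.7, 329 became 188 with a filter at 2, 145 without trend, 1 without day 6 and 6 to 1052 with 1 library left out. Between hairpins, 0 became 2 with no filter. For day 5 against day 4, 4157 became 2367 to 4553 with 1 library left out. For the interaction, 503 became 272 without trend, 272 without day 6, 40 with Smarcc1.6 only, 86 with Smarcc1.7 only and 198 to 532 with 1 library left out. The number of the 8 genes with an onset in Smarcc1.6 went from 4 to 1 with 2 log2 units.

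Without the block for day, which pairs libraries of the same day as the labels give it, 4 genes were called for knockdown (522 unadjusted), 0 for Smarcc1.6 (353 unadjusted) and 0 for Smarcc1.7 (238 unadjusted), and Tbx20 was at -1.21 (adjusted p = 0.955) for knockdown and -1.54 (adjusted p = 1.0) for Smarcc1.6. Without day 6, Smarcc1.6 lost its call too (-1.50, adjusted p = 0.0722). Tbx20 with knockdown ranged from -1.51 to -0.97 with 1 library left out and was called in 10 of 12 cases. With a single hairpin it was not called, at -1.54 (adjusted p = 0.0775) and -0.89 (adjusted p = 0.134). Without Nons of day 4, Smarcc1.7 was called too (-1.19, adjusted p = 0.0162). Hand1 was higher on day 7 than on days 4 and 5 in 12 of 12 cases each, by 0.65 to 1.28 and 1.22 to 1.56. Calls of Isl1, Mef2c and Tnnt2 rest on few reads and were lost in 6, 12 and 8 of 12 cases. Depth limits Hand2, Nkx2-5 and Mef2c most.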
